A study of Sus scrofa with 16 samples.

Results

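The genes described here are interferon gamma (IFNG), the interleukins IL6, IL10, IL12A and IL12B, and ISG12(A), an interferon-induced gene, in pig conceptuses around implantation. They were chosen by gene symbol in the array's annotation. They are 6 of 636 genes with a symbol of their own, measured by 8 of 1015 probes: probes 500 and 544 for IFNG, 132 and 136 for ISG12(A), 109 for IL6, 13 for IL10, 14 for IL12A and 15 for IL12B. Per the labels, amplified RNA of pig (Sus scrofa) embryos was turned into a radioactive target (32P) for a macroarray, a membrane that carries PCR products of cDNAs picked for expression in the embryo. Each stage had 4 arrays, 16 in all. Small spherical embryos measured 1 to 5 mm, and large spherical embryos 6 to 11 mm. Tubular embryos were 13 to 45 mm long, and filamentous embryos exceeded 100 mm. The labels name no strain, treatment or genotype. Nor do they give the animals or pools behind each array, so a p-value here reflects only how much these arrays varied. In whole embryos, fewer cells of a type and less RNA per cell cannot be told apart.

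Interferon gamma is a cytokine that binds its own receptor. In most tissues T cells and natural killer cells make it, but the trophectoderm of the pig conceptus, its outer epithelium, is known to secrete it together with a type I interferon around the time of elongation and attachment. Interleukin 12, a dimer of the IL12A and IL12B chains, drives lymphocytes to make interferon gamma, and the IL12B chain is also part of interleukin 23. Interleukin 10 restrains inflammatory cytokines, interleukin 6 signals through STAT3, and ISG12(A) belongs to the family of IFI27, small membrane proteins that interferons induce.

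The 8 probes lay in very different parts of the intensity range. Array medians were 62.8 to 71.4 and an array held 160 to 256 distinct values, with a commonest step between them of 0.815 to 1.67, so low intensities were recorded in coarse steps. IFNG probe 500 was brighter than 62.2% to 87.1% of the probes on its array, whereas IL6 was brighter than 18.4% to 39.3%. IL10 never exceeded 4.43% of the probes on its array, IL12A 9.36% and IL12B 5.02%. On 13 of 16 arrays IL12B had at most 2 distinct values below it, as IL10 had on 8 and IL12A on 4. Signal depends on the spotted product as well as on the transcript, so these places describe how well each probe was measured and not which gene was more abundant. By mean Spearman correlation over all probes, 12 of the 16 arrays were closer to another stage than to their own.

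**Figure D1:**
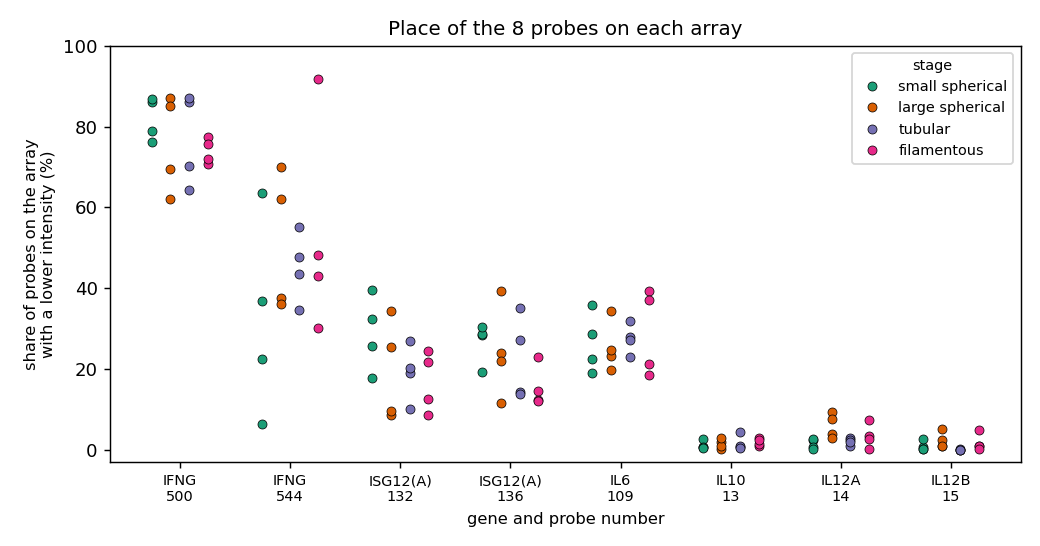
For each of the 8 probes (horizontal axis), the vertical axis gives the share of the 1015 probes on the array that had a lower intensity, in percent, with 1 point per array coloured by stage. IL10, IL12A and IL12B stay below 10% on all 16 arrays, IL6 and ISG12(A) lie between 8.47% and 39.4%, and IFNG probe 544 spreads from 6.31% to 91.9%.

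None of the 8 probes differed between the 4 stages after adjustment over all 1014 probes tested (limma F test), against 0.394% of all probes. At an unadjusted p below 0.05, 2 of the 8 passed, IL12A and IL12B, against 10.4% of all probes. With the array number as a replicate block, IL12B passed the F test over all probes (adjusted p = 0.0417, against 0.142 without the block). That was the only 1 of 26 alternative ways of processing in which IL12B passed the F test. Over these its adjusted p ran from 0.0417 to 0.529.

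IFNG probe 500 read brightly at every stage. Its intensities were 176, 140.5, 136 and 167 in small spherical embryos, 183, 171, 97.8 and 116 in large spherical ones, 184, 97.5, 159.9 and 115 in tubular ones and 136, 119, 129.7 and 117 in filamentous ones. The stages overlapped, and the highest array of each stage was the array numbered 1. Means ran from 155 ± 19.9 in small spherical through 142 ± 41.5 and 139 ± 39.8 to 125 ± 8.92 in filamentous embryos (SD, n = 4), an order in which no neighbours differed beyond their spread. Between filamentous and small spherical embryos the log2 difference was -0.30 ± 0.23 (SE), with a 95% interval of -0.79 to 0.19 (adjusted p = 0.629). As a ratio, the interval ran from 0.578-fold to 1.14-fold.

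The other IFNG probe, 544, was dimmer and far more variable. It read 95.9, 31.8, 47 and 14.8 in small spherical, 117, 48, 97.8 and 45.4 in large spherical, 66, 76.7, 46.6 and 55.9 in tubular and 206, 39.1, 66.7 and 56.6 in filamentous embryos. A single small spherical array, replicate 4, lay below all others, and a single filamentous array, replicate 1, above all others. The mean was 92.1 ± 76.7 in filamentous and 47.4 ± 34.9 in small spherical embryos, a log2 difference of 0.96 ± 0.55 (adjusted p = 0.468) with an interval of -0.21 to 2.13. Without filamentous replicate 1 the difference was 0.47, and without that array and small spherical replicate 3 it was 0.57 (adjusted p = 0.748). Large minus small spherical gave 0.89 ± 0.55 (adjusted p = 0.719). The signs of both differences were opposite to those of probe 500.

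The array number moved with both IFNG probes. On the 4 arrays numbered 1, 1 per stage, probe 500 averaged 169.7 and probe 544 averaged 121, against 130.6 and 52.2 on the 12 arrays numbered 2 to 4. The array numbered 1 was the highest of its stage in all 4 stages for probe 500, as for 6.31% of all probes, and in 3 of 4 stages for probe 544, as in at least 3 stages for 20.5% of all probes. The labels do not say what the number stands for. On the 12 arrays alone, filamentous minus small spherical was -0.28 for probe 500 (adjusted p = 0.674) and 0.91 for probe 544 (adjusted p = 0.379).

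ISG12(A) was measured by a pair of probes of middling signal, and both read lower in the later stages without passing the test. Probe 132 read 35.2, 25.4, 41.2 and 49.7 in small spherical, 35.2, 14.7, 15 and 43.4 in large spherical, 34.3, 26.7, 18.5 and 28.2 in tubular and 33, 20.3, 13.8 and 30.1 in filamentous embryos. Probe 136 read 26.2, 38.2, 37.4 and 41 in small spherical, 33.4, 18, 28.4 and 49.2 in large spherical, 44.5, 22.5, 22.8 and 36.4 in tubular and 19.3, 31.9, 18.8 and 23.8 in filamentous embryos. In both, the filamentous arrays overlapped the small spherical ones, although for probe 136 3 of the 4 filamentous arrays lay below every small spherical array.

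Filamentous embryos averaged 24.3 ± 8.86 for probe 132 and small spherical embryos 37.9 ± 10.2, a log2 difference of -0.68 ± 0.38 (adjusted p = 0.443). For probe 136 the means were 23.5 ± 6.04 in filamentous and 35.7 ± 6.49 in small spherical embryos, a log2 difference of -0.62 ± 0.30 (adjusted p = 0.373). The intervals ran from -1.48 to 0.12 and from -1.27 to 0.03, and both held 0. In both probes the small spherical mean was the highest and the filamentous mean the lowest. For probe 132 the tubular and large spherical means were nearly equal (26.9 and 27.1), and the fitted tubular minus large spherical difference was 0.13 on the log2 scale.

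**Figure D2:**
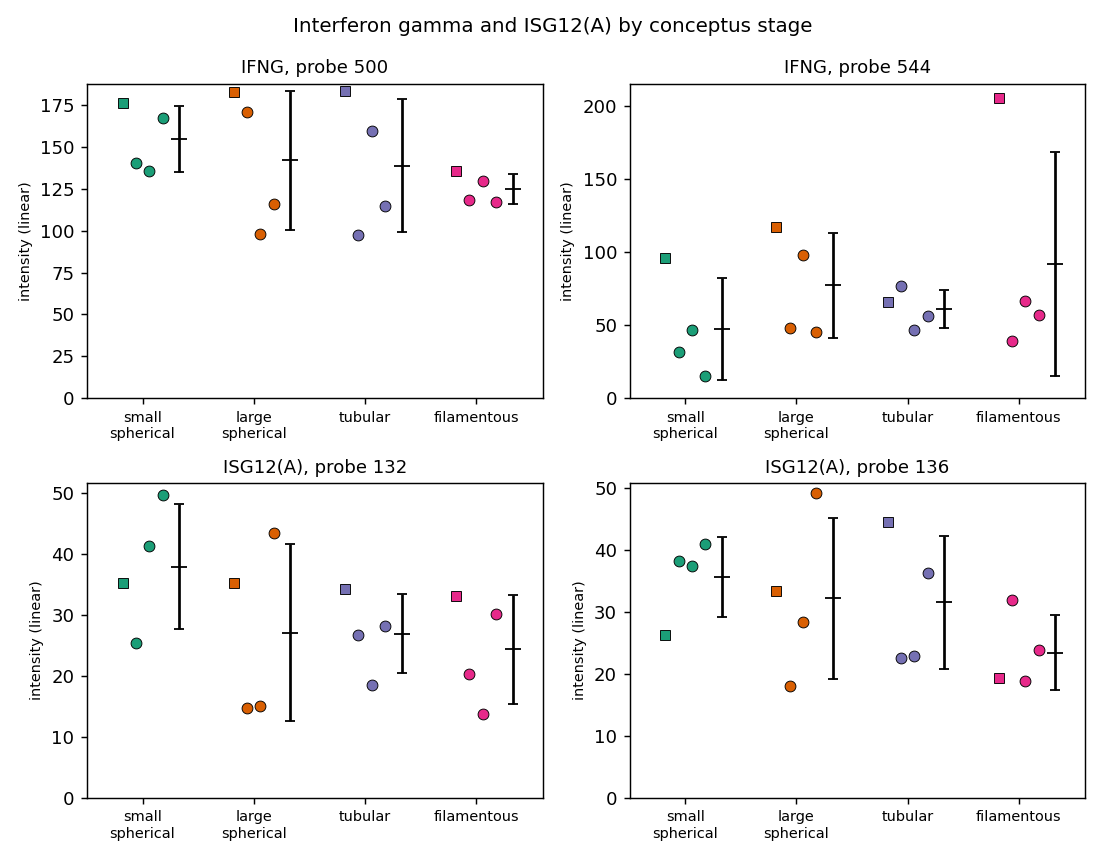
Intensity on a linear scale (vertical axes) by stage (horizontal axes) for the pairs of probes of IFNG and ISG12(A). Squares are the arrays numbered 1, circles the arrays numbered 2 to 4 in order from left to right, and the bars give the mean and SD of 4 arrays. The stages overlap in all panels, and IFNG probe 544 has its highest value, 206, on 1 filamentous array.

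The pairs of probes behaved differently as repeated measurements of 1 gene. Both names come from the platform annotation, and whether each probe carries the sequence of its named gene was not tested, since no probe sequences were used here. Over the 16 arrays the ISG12(A) probes correlated with a Pearson r of 0.64 and a Spearman rho of 0.66 on the log2 scale (permutation p = 0.00943 and 0.00574, adjusted p = 0.0377 and 0.023 over 4 relations). The r was 0.44 without the 2 arrays farthest from the median of probe 132, 0.77 on the 12 arrays numbered 2 to 4 and 0.58 after the stage means were subtracted. Ranked by rho with probe 132, probe 136 came 9th of 1013 other probes. The IFNG probes gave an r of -0.09 and a rho of 0.0029 (permutation p = 0.736 and 0.996, adjusted p = 0.736 and 0.996), with an r of 0.08 without the 2 farthest arrays and 0.07 after subtraction of stage means. On the 12 arrays numbered 2 to 4 the IFNG r was -0.69. Probe 544 came 552nd of 1013 by rho with probe 500.

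**Figure D3:**
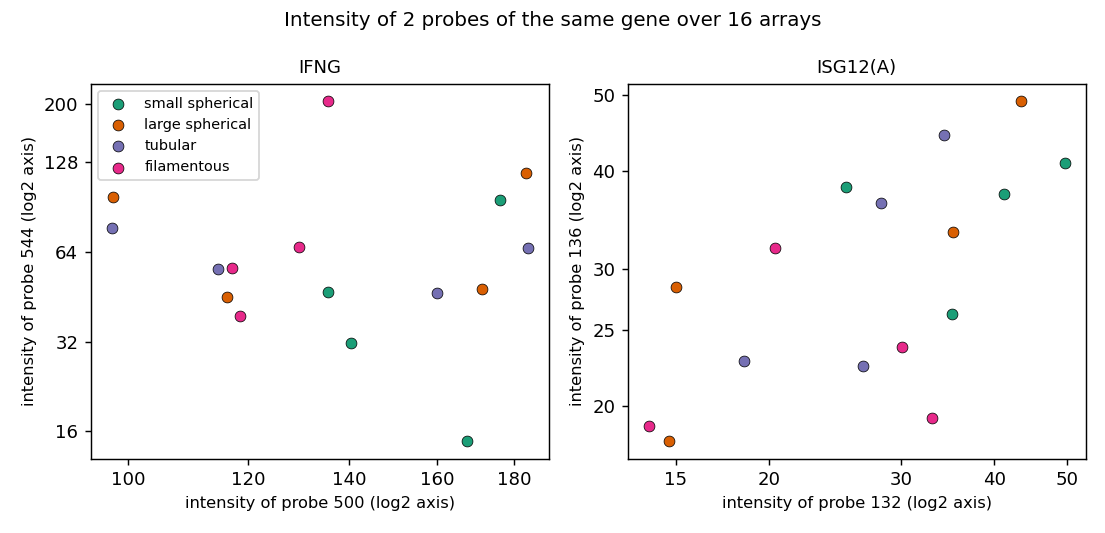
Each point is 1 array, with the intensity of the first probe on the horizontal and of the second on the vertical axis, both on log2 axes, coloured by stage. Over the 16 arrays the ISG12(A) probes lie along a common slope (r = 0.64), whereas the IFNG probes show no common order (r = -0.09). On the 12 arrays numbered 2 to 4 the r was 0.77 for ISG12(A) and -0.69 for IFNG.

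No relation between the mean of the IFNG probes and that of the ISG12(A) probes was detected over the 16 arrays, and the first of these averages probes that did not follow each other. The Pearson r was -0.23 and the Spearman rho -0.37 (permutation p = 0.394 and 0.16, adjusted p = 0.526 and 0.214), with an r of 0.0019 without the 2 farthest arrays. It was -0.73 on the 12 arrays numbered 2 to 4 and -0.09 after subtraction of stage means, so its size depended on which arrays entered.

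IL6 differed little between the stage means. It read 25.4, 31.8, 37.4 and 45.3 in small spherical, 31.6, 34.7, 25.7 and 43.4 in large spherical, 36.6, 35, 31.5 and 41.3 in tubular and 29.6, 52.1, 26.4 and 49 in filamentous embryos. The ranges overlapped throughout. Stage means lay between 33.9 ± 7.4 in large spherical and 39.3 ± 13.2 in filamentous embryos, and the F test gave an adjusted p of 1.0. For filamentous minus small spherical the log2 difference was 0.14 ± 0.25 (adjusted p = 0.904) with an interval of -0.39 to 0.67, or 0.762-fold to 1.59-fold as a ratio.

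IL10 stayed among the dimmest probes. It read 1.79, 3.2, 1.91 and 2.18 in small spherical, 2.34, 1.35, 2.67 and 6.99 in large spherical, 7.12, 2.08, 2.16 and 2.14 in tubular and 1.71, 3.01, 6.25 and 6.15 in filamentous embryos. On all 4 small spherical arrays its value was exactly that of the IL2 and IL4 probes, and 6 to 15 other probes shared it. Such values have no order among themselves, and the 4 readings above 6 fell on 1 large spherical, 1 tubular and 2 filamentous arrays. The log2 difference between filamentous and small spherical embryos was 0.76 ± 0.53 (adjusted p = 0.563).

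IL12A, the alpha chain of interleukin 12, had the smallest p of the 8 probes in any comparison between stages, large against small spherical embryos. It read 3.03, 3.2, 1.91 and 1.73 in small spherical, 15.1, 8.02, 12.4 and 6.99 in large spherical, 4.86, 7.94, 2.16 and 5.4 in tubular and 6.5, 5.9, 2.52 and 12.5 in filamentous embryos. Every large spherical array lay above every small spherical one, as for 3.85% of all probes in this direction. The tubular and filamentous arrays spread over both ranges. The order of the means was large spherical (10.6 ± 3.8), filamentous (6.84 ± 4.13), tubular (5.09 ± 2.37) and small spherical (2.47 ± 0.756), in which neighbours overlapped.

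The log2 difference of IL12A between large and small spherical embryos was 2.09 ± 0.46 (interval 1.11 to 3.07), the 7th smallest p of 1014, and it did not pass over all probes (adjusted p = 0.0545). Over the alternatives its adjusted p ran from 0.0278 to 0.239 and was under the threshold in 5 of 27. On the 12 arrays numbered 2 to 4 the difference was 2.01 (adjusted p = 0.174). The arrays numbered 1 read 15.1 for large and 3.03 for small spherical embryos. The small spherical readings had only 1 to 4 distinct values below them on their arrays. With an offset of 5 before the log the difference was 1.04 (adjusted p = 0.059).

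The later differences of IL12A did not pass. Tubular minus large spherical was -1.14 ± 0.46 (unadjusted p = 0.0257, adjusted p = 0.999), filamentous minus large spherical -0.78 ± 0.46 (adjusted p = 0.722) and filamentous minus tubular 0.35 ± 0.46 (adjusted p = 0.994). Filamentous minus small spherical was 1.31 ± 0.46 (unadjusted p = 0.0121, adjusted p = 0.194), where filamentous replicate 3 (2.52) lay within the small spherical range.

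IL12B, the beta chain, was at or next to the lowest value of the array in tubular embryos. It read 1.79, 3.2, 1.19 and 1.73 in small spherical, 1.83, 3.33, 2.67 and 10.8 in large spherical, 0.33, 1.69, 0.157 and 0.509 in tubular and 1.71, 2.89, 2.52 and 9.93 in filamentous embryos. All tubular arrays lay below all large spherical arrays, as for 1.78% of all probes in this direction. All filamentous arrays lay above all tubular ones, as for 1.97%. On 3 of 4 tubular arrays no probe was lower, and on the remaining one a single distinct value was. The lowest value itself differed between arrays, from 0.12 to 1. It was 0.33, 1, 0.157 and 0.509 on the tubular arrays and 1 on every small spherical array. On the large spherical arrays it was 0.514, 1, 1 and 0.28, and on the filamentous ones 0.517, 0.12, 1 and 1. What part these unequal lowest values had in the IL12B differences was not tested.

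The log2 differences of IL12B were therefore large but rested on steps at the bottom of the scale. Tubular minus large spherical was -2.99 ± 0.70 (unadjusted p = 0.00069, adjusted p = 0.7) and filamentous minus tubular 2.86 ± 0.70 (unadjusted p = 0.000999, adjusted p = 0.994), each the smallest unadjusted p of its comparison over 1014 probes. With an offset of 5 before the log they became -0.69 (adjusted p = 0.999) and 0.64 (adjusted p = 0.991). In linear intensity the medians were 0.42 in tubular and 3.00 in large spherical embryos, a distance of a few recorded steps. The means of filamentous (4.26 ± 3.81) and large spherical embryos (4.67 ± 4.16) were 2.37 and 2.61 without replicate 4 of each stage, and the tubular mean was 0.673 ± 0.695.

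Over the 16 arrays IL12A and IL12B, the chains of 1 dimer, correlated with a Pearson r of 0.42 and a Spearman rho of 0.49 (permutation p = 0.104 and 0.0555, adjusted p = 0.207 and 0.111). The r was 0.47 without the 2 farthest arrays and 0.53 on the arrays numbered 2 to 4. Between small and large spherical embryos, where IL12A separated, IL12B differed by 0.98 ± 0.70 (adjusted p = 0.784), with overlapping arrays.

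**Figure D4:**
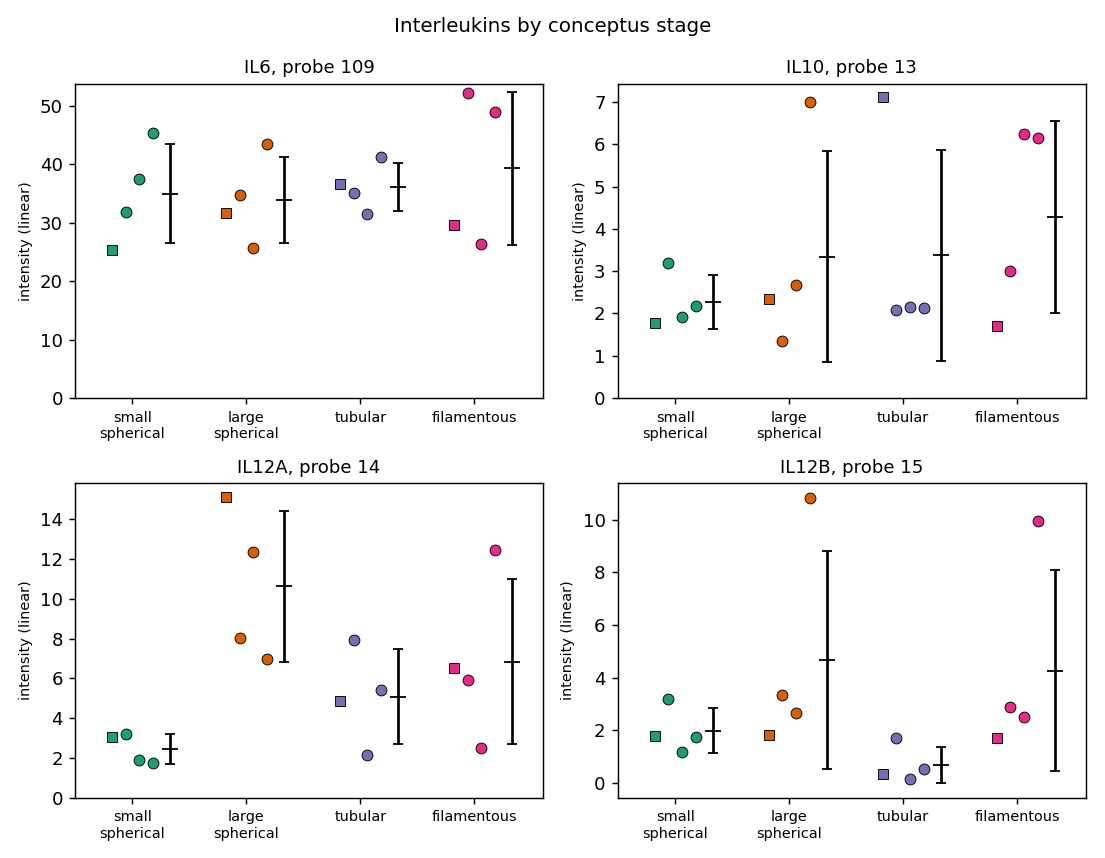
Intensity on a linear scale (vertical axes) by stage (horizontal axes) for IL6, IL10, IL12A and IL12B. Squares are the arrays numbered 1, circles the arrays numbered 2 to 4 from left to right, and the bars give mean and SD of 4 arrays. The large spherical values of IL12A, 6.99 to 15.1, all lie above the small spherical ones, 1.73 to 3.2, and the tubular values of IL12B are the lowest of that probe except for replicate 2.

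Step by step, 0 of the 8 probes passed over all probes in each of the 6 comparisons between stages by limma. In large minus small spherical embryos 1 of 8 had an unadjusted p below 0.05 (IL12A), against 9.37% of all probes, of which 0.394% passed the adjusted threshold. In tubular minus large spherical the count was 2 of 8, IL12A and IL12B, against 3.25% of all probes, and in filamentous minus tubular 1 of 8, IL12B, against 3.35%. No probe on the array, 0% of 1014, passed the adjusted threshold in either of these. In filamentous minus small spherical 1 of 8 did so at an unadjusted p (IL12A), against 14.6% of all probes, with 0.888% past the adjusted threshold. The remaining comparisons gave 1 of 8 for tubular minus small spherical, IL12B at -2.01 ± 0.70 (adjusted p = 0.198), against 11.4%, with 0.394% past the adjusted threshold. For filamentous minus large spherical they gave 0 of 8 against 6.02%, with 0% past it.

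The 8 probes did not move together in 1 direction. Positive differences numbered 4 of 8 in large minus small spherical embryos (45.9% of all probes; median 0.14, against -0.03 over all probes), 3 of 8 in tubular minus large spherical (42%; -0.02 against -0.04), 5 of 8 in filamentous minus tubular (54.1%; 0.18 against 0.02) and 5 of 8 in filamentous minus small spherical (45.6%; 0.45 against -0.03). Comparisons that have a stage in common use the same arrays of it.

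**Figure D5:**
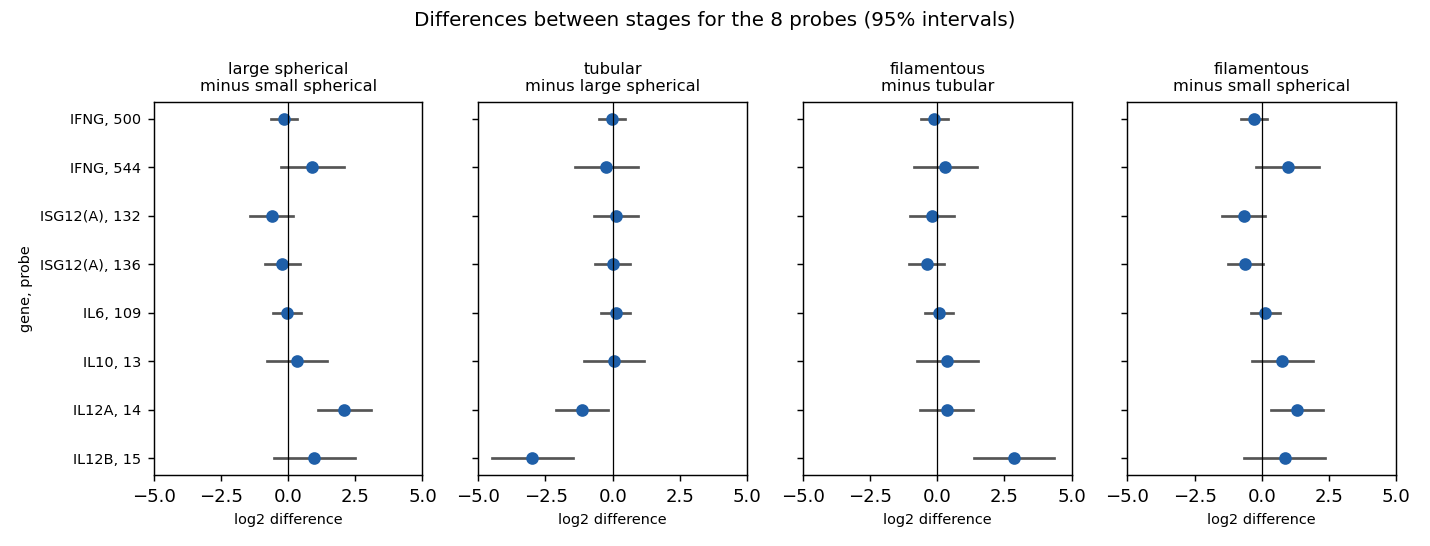
Log2 differences (points) with 95% intervals (lines) of the 8 probes in 4 comparisons between stages, from the fit over all 16 arrays; positive means higher in the stage named first. Only IL12A in the first panel, IL12A and IL12B in the second, IL12B in the third and IL12A in the fourth have an interval that leaves out 0, and none of these passed after adjustment over all probes.

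Genes whose intensities followed each probe most closely were taken by Spearman's rho over the 16 arrays, which share array number and stage. For IFNG probe 500 they were IMMP1L (0.89), IVNS1ABP (0.86) and SMARCA1 (0.86), and for probe 544 EPRS (0.90), GALK2 (0.78) and COPZ1 (0.77). For ISG12(A) they were NUDC (0.79), PAG6 (0.74) and NTRK3 (0.74) by probe 132 and FBLN1 (0.79), LOC100524308 (0.77) and LIN37 (0.74) by probe 136. ZC3H10 (0.82), PDCD6 (0.79) and USP4 (0.77) were closest to IL6, and NTAN1 (0.76), RPS20 (0.65) and ATP5H (0.64) to IL10. IL12A was closest to CYB5A (0.79), SLC25A5 (0.72) and TM4SF1 (0.70). IL12B was closest to CD3E (0.78), another probe at the bottom of the scale, CENPF (0.63) and BNIP3L (0.59). These values describe likeness on these arrays. Each was picked as among the highest of many correlations, and how high the best rho runs for other probes was not counted.

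Other genes of the pathway were few on this array. Of 47 further cytokines and chemokines listed 8 were measured, of 53 receptors and signalling genes 0, and of 66 interferon-induced and antigen presentation genes 1. None of the 9 passed over all probes in the F test or in any of the 6 comparisons, and at an unadjusted p below 0.05 the F test gave 1, IL13, or 1 of 9 against 10.4% of all probes. At that level IL13 gave 1 of 9 in large minus small spherical (9.37% of all probes), filamentous minus small spherical (14.6%) and tubular minus small spherical (11.4%). These comparisons use the same small spherical arrays. IDO1 gave 1 of 9 in filamentous minus large spherical (6.02%). Tubular minus large spherical (3.25%) and filamentous minus tubular (3.35%) gave 0 of 9. The response side is thus represented by ISG12(A) and by IDO1, the enzyme that degrades tryptophan and is induced by interferon gamma.

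IDO1 read 10.2, 9.39, 14.5 and 10.4 in small spherical, 17, 1.35, 23 and 3.16 in large spherical, 30.9, 14.2, 9.87 and 7.03 in tubular and 27.9, 21.8, 13.8 and 40.2 in filamentous embryos. The filamentous arrays were the highest as a group but overlapped the other stages. Filamentous minus large spherical was 1.91 ± 0.72 (adjusted p = 0.722) and filamentous minus small spherical 1.13 ± 0.72 (adjusted p = 0.532). Both ISG12(A) probes differed in the opposite direction in the second comparison. In the first they did so by -0.07 ± 0.38 (probe 132) and -0.40 ± 0.30 (probe 136). Neither gene passed in these comparisons.

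Among the cytokines, IL13, a type 2 cytokine, read 9.07, 14.6, 11.3 and 23.8 in filamentous and 4.82, 3, 7.87 and 3.91 in small spherical embryos, with no overlap, as for 4.54% of all probes in this direction. Its log2 difference was 1.58 ± 0.51 (unadjusted p = 0.00702, adjusted p = 0.155). IL18, which with interleukin 12 stimulates interferon gamma production, averaged 58.5 ± 19 in filamentous and 37.1 ± 12 in large spherical embryos (log2 0.66 ± 0.31, adjusted p = 0.722). IL4 reached 17.5 on 1 filamentous array and was 0.12 on another, and its stage means were 2.27 to 7.03. CCL2, a monocyte chemokine, had stage means of 7.28 to 10.8. The remaining cytokines, IL2, IL5, IL15 and TNF, had an adjusted p of 0.733 or more in the F test and in every comparison.

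Markers of blood and endometrium were also sparse. Of 27 leukocyte and blood markers only CD3E, a T cell receptor component, was measured, at 0.33 to 4.34 over all arrays, near the bottom of the scale. It averaged 1.32 ± 0.745 in tubular and 2.85 ± 1.21 in large spherical embryos, the direction of IL12B. CD3E and IL12B read exactly the same value on large spherical replicates 1 and 2 and on filamentous replicates 1, 2 and 3. They also tied on small spherical replicate 1 and tubular replicate 1. What part CD3E had in the IL12B result was not tested. Of 12 markers of maternal endometrium 3 were measured (ACP5, OXTR and PGR), with a summed intensity of 44.4 to 55.3 in small spherical, 32.7 to 42.4 in large spherical, 38.4 to 44.7 in tubular and 28.5 to 63.8 in filamentous embryos. The trophectoderm was represented by 5 of 15 markers, KRT8, KRT18, KRT19, PLAC1 and GCM1. PLAC1, a placental gene, was higher on average in filamentous embryos (33.7 ± 10.9) than in small spherical ones (12.1 ± 4.2). The log2 difference was 1.46 ± 0.28 (adjusted p = 0.0159), in a comparison that 0.888% of all probes passed. Filamentous replicate 1 (17.6) lay below small spherical replicate 3 (18.4). PLAC1 was also higher in tubular embryos (30.4 ± 6.14) than in small spherical ones, by 1.36 ± 0.28 (adjusted p = 0.046), where 0.394% of all probes passed. The keratins and GCM1 did not pass in any comparison; KRT18 had stage means of 250.4 to 275, and GCM1 lay near the bottom of the scale, at 0.12 on 1 array. Summed, the 5 markers ran from 340.1 to 479.6 in small spherical, 378.8 to 509.8 in large spherical, 400.2 to 473.6 in tubular and 375.5 to 520.0 in filamentous embryos. Of 11 markers of hypoblast and yolk sac 6 were measured (AFP, APOA1, APOA2, FN1, RBP4 and TF), and none passed over all probes. Their summed intensity was 398.6 to 510.4 in small spherical, 416 to 511.5 in large spherical, 441.6 to 514.4 in tubular and 524.9 to 708.7 in filamentous embryos. The filamentous sums thus lay above those of every other array, but brighter probes weigh more in such a sum and the markers did not move together. APOA1, APOA2, FN1 and RBP4 had their highest mean in filamentous embryos, whereas TF and AFP had their lowest there. TF averaged 11.5 ± 5.47 in filamentous and 26.6 ± 6.31 in small spherical embryos, and AFP 56.3 ± 15.7 and 57.8 ± 8.11. What part these markers' cells had in the values of the 8 probes was not tested.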

How the data were processed

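The files deposited by the authors hold a linear intensity for each of 1015 probes on each of 16 arrays. Scanning, background correction and normalization of the membranes are not given in the sources used here. Array medians spanned 0.185 on the log2 scale, under a limit of 0.2, so intensities were taken to log2 with no offset and no further normalization. The 1 probe with a constant value was left out. Per the platform annotation 674 probes had 1 symbol, 17 several and 324 none; all 6 member genes were found in the RefSeq gene table under the same symbol. No sequence table was used here.

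Stage means were fitted for all 1014 remaining probes with limma 3.58.1 in R 4.3.3 (lmFit, eBayes; F test and 6 contrasts, two-sided, Benjamini-Hochberg over all probes, threshold 0.05) and tested on simulated data. Means and SDs are of linear intensities, log2 differences are from the fit. Correlations used 100000 permutations over 4 relations chosen after the values were seen. Named genes were all member probes, the 3 genes most like each, up to 4 genes of each pathway list by F, and the leukocyte and endometrium markers; IL2, IL5, IL15, TNF and the markers of trophectoderm, hypoblast and yolk sac were added after their values were seen. Where a listed gene had several probes, the brightest was taken. Arrays with the same number deviated together in all pairs between large and small spherical embryos (correlations of 0.219 to 0.495), where the block changed no member's call. In the 5 other comparisons at least 1 pair stayed under 0.1, but the arrays numbered 1 deviated together in each (0.27 to 0.469). The main fit had no term for the array number. The members and lists were chosen with earlier results of these data known. The number of arrays limits the precision. Plots were drawn with matplotlib 3.10.9.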

Additional observations from a re-analysis of the deposited data

Results flagged for a closer look

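In 4 of 32 groups of 4 arrays (8 probes by 4 stages) 1 array lay far from the rest by Dixon's criterion on linear intensities. Chance flags about 1 in 20 groups if values are normally distributed, which was not tested here. The share of flagged groups over all probes was not counted, so the 4 groups cannot be called unusual. In each of the 4 the outlying array was the highest. IFNG probe 544 read 206 on filamentous replicate 1, against 39.1 to 66.7 on the other arrays of that stage. IL10 read 7.12 on tubular replicate 1, against 2.08 to 2.16 on the others. IL12B read 10.8 on large spherical replicate 4, against 1.83 to 3.33, and 9.93 on filamentous replicate 4, against 1.71 to 2.89. The arrays holding these values are numbered 1 or 4.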

How the results depend on the processing

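Intensities near the lowest value of an array, with many ties, limit IL10, IL12A and IL12B, and the unknown treatment of the scans limits every value. In 28 alternatives, 22 of 48 differences of the 8 probes between stages changed sign under at least 1. The largest of these was 0.38 (log2, either sign) as reported, with adjusted p-values of 0.885 or more, and the cause was not tested. With the replicate block the F test counted 1 of 8 probes past the threshold, IL12B (adjusted p = 0.0417), against 0 as reported. For large minus small spherical embryos 1 of 8 passed, IL12A, with cyclic loess normalization and with only the 2 stages compared, against 0 as reported, and leaving out 1 array gave 0 to 1; IL12A passed without tubular replicate 3 (adjusted p = 0.0339), filamentous replicate 3 (0.0278) or filamentous replicate 4 (0.0354). The replicate block changed no other call of the 8 probes. A batch term for the arrays numbered 1, chosen after seeing the data, left IL12A at an adjusted p of 0.0505. The filter on the dimmest 25% of probes gives no value for IL10, IL12A, IL12B and ISG12(A). Over all probes, the alternatives called 1 to 17 by F (4 as reported), 1 to 36 in large minus small spherical (4), 2 to 31 in filamentous minus small spherical (9) and 3 to 29 in tubular minus small spherical embryos (4).

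The values that turned sign were as follows. For tubular minus large spherical, IL10 gave -0.44 with quantile normalization, -0.074 with cyclic loess, -0.40 with array weights and -0.46 on the 12 arrays numbered 2 to 4, IFNG probe 500 gave 0.037 with quantile and 0.067 with cyclic loess, ISG12(A) probe 132 gave -0.010 with array weights and probe 136 gave 0.019 with median centring. For tubular minus small spherical, IL10 gave -0.060 with quantile, -0.055 with array weights and -0.16 on the 12 arrays, and IL6 gave -0.082 on the 12 arrays. For large minus small spherical, IL6 gave 0.022 with cyclic loess and 0.0034 with small spherical replicate 3 and filamentous replicate 1 both left out. For filamentous minus tubular, IL6 gave -0.0052 with array weights, IFNG probe 500 gave 0.0034 and probe 544 -0.15 on the 12 arrays, and probe 544 gave -0.19 with both arrays left out. For filamentous minus large spherical, IL12B gave 0.19 with both left out, and IFNG probe 544 gave -0.0039 with array weights, -0.18 on the 12 arrays and -0.42 with both left out.

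Leaving out 1 array in turn, IFNG probe 500 ranged from -0.30 to 0.00016 in large minus small spherical, -0.19 to 0.12 in tubular minus large spherical, -0.26 to 0.043 in filamentous minus tubular and -0.30 to 0.00086 in filamentous minus large spherical. IFNG probe 544 ranged from -0.44 to 0.013, -0.19 to 0.61 and -0.42 to 0.38 in the last 3 of these. IL10 ranged from -0.12 to 0.67 in large minus small spherical, -0.38 to 0.50 in tubular minus large spherical and -0.053 to 0.56 in tubular minus small spherical. IL12A ranged from -0.0096 to 0.76 in filamentous minus tubular and IL12B from -0.65 to 0.40 in filamentous minus large spherical. IL6 ranged from -0.18 to 0.10 in large minus small spherical, -0.013 to 0.24 in tubular minus large spherical, -0.091 to 0.24 in filamentous minus tubular, -0.021 to 0.31 in filamentous minus small spherical and -0.073 to 0.21 in tubular minus small spherical. ISG12(A) probe 132 ranged from -0.11 to 0.41 in tubular minus large spherical, -0.37 to 0.051 in filamentous minus tubular and -0.31 to 0.21 in filamentous minus large spherical, and probe 136 from -0.45 to 0.032 in large minus small spherical and -0.25 to 0.23 in tubular minus large spherical.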

Other observations

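Among 10 interleukin probes (IL2, IL4, IL5, IL6, IL10, IL12A, IL12B, IL13, IL15 and IL18), small spherical replicate 2 held the highest value of its stage for 6. For IL2, IL4, IL10, IL12A and IL12B this was 1 and the same low value, 3.2. The commonest step on that array was 1.6, against 0.893 to 1.09 on the other small spherical arrays. How often each array was the highest over all probes was not counted for this comparison. Large spherical replicate 4 held it for 5, with IL13 at 24.3, IL4 at 12.8 and IL12B at 10.8. Filamentous replicate 4 held it for 4, with IL13 at 23.8, IL4 at 17.5 and IL12A at 12.5. Exact ties joined these probes: IL10 equalled IL4 on 7 of 16 arrays, and IL12B equalled IL2 on 7.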
